A study of Saccharomyces cerevisiae with 6 samples.

Results

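The distal parts of the long chromosome arms of budding yeast, Saccharomyces cerevisiae, were described here by how often they contacted each other between chromosomes. The members were pairs of 10 kb bins on different chromosomes in which both midpoints lay more than 400 kb from their own centromere and more than 30 kb from a chromosome end. Chromosome XII, which carries the ribosomal DNA, and the mitochondrial genome were left out of the members. The rule used positions alone and no contact value. It gave 196 bins and 15527 pairs, out of 1216 nuclear bins and 683695 pairs between chromosomes. After bins with few filled partners were removed, 187 distal bins and 14254 distal pairs were used, out of 1080 bins and 538386 pairs.

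Contacts were measured by Hi-C, in which chromatin is fixed, cut, and religated so that neighbouring fragments become joined and can be sequenced as pairs. Both maps came from 1 haploid MATa strain, yMD291, deprived of methionine, and were labelled as replicates 1 and 2. Per the methods of the study, its strains derive from a w303 background. The strain carries the auxotrophic and resistance alleles ura3-1, ade2-1, can1-100, his3-11,15 and trp1-1, and leu2 with its alleles 3 and 112. Added to these are bar1, fpr::NAT and the allele tor1-1. It also carries constructs at HIS3 and ADE2 that express tetR and LacI from the REV1 promoter, a LacO array on chromosome XV at 497047, and a TetO array on the same chromosome at 834487. There was no comparison strain or condition among the maps, so no difference between conditions was tested. The other 4 of 6 labelled samples were not analysed here. Replicates are biological ones per the methods of the study, and n = 2 below counts these maps.

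In budding yeast the centromeres are held together at the spindle pole body and telomeres tend to lie at the nuclear envelope, an arrangement called the Rabl configuration. Chromosome arms extend from the centromere cluster like the hairs of a brush, so loci far along an arm lie away from the cluster. Long terminal repeat retrotransposons, named Ty elements, are scattered along the arms, often close to tRNA genes. Their copies are nearly identical, and reads from such copies can be difficult to place. Ty elements and repeats below are placed as in the reference genome, and whether the strain carries each of them there was not tested.

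A pair of bins on different chromosomes was described by its observed over expected value (O/E), which is the balanced signal divided by the mean balanced signal of all pairs used between chromosomes in the same map. An O/E of 1 is thus the average pair between chromosomes. Replicate 1 held 3760159 contacts and replicate 2 held 3518507, of which 1004871 and 931315 joined different chromosomes. The contact totals of bins differed between maps by more than sampling noise (chi-square over degrees of freedom 2.24). Intervals below are 95% exact Poisson intervals on the summed contacts of both maps and cover counting error only.

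The 2 highest single pairs of distal bins with at least 3 contacts in each map share identical Ty sequence. Their longest identical stretches are shown before the values. The other high pairs named further on share no identical stretch of 50 bases. The first stretch joins a bin of chromosome XIII with a bin of chromosome XIV. It spans 127 bases within a Ty4 long terminal repeat on each chromosome, at chrXIII:808748-808874 on the forward strand and chrXIV:96483-96609 on the reverse strand (R64 reference, RefSeq). It holds no site for DpnII, the enzyme that cut the chromatin at GATC.
Ty4 repeat shared by XIII and XIV: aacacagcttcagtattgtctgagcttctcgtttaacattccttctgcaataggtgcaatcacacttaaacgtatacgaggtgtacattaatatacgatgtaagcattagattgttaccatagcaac

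The second stretch joins the same bin of chromosome XIV with a bin of chromosome XV. It spans 68 bases at the edge of the long terminal repeats of the Ty1 element YNLCTy1-1 and the Ty2 element YORWTy2-2, at chrXIV:96926-96993 on the forward strand and chrXV:975862-975929 on the reverse strand. The capitals mark its only DpnII site.
Ty1 and Ty2 sequence shared by XIV and XV: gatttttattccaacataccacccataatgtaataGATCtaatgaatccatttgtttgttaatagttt

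The third sequence is the reference around the labelled position of the TetO array, which was the only inserted array within the distal set. It runs from chrXV:834457-834517 on the forward strand, within TPO4, a gene for a polyamine transporter, and the capital marks position 834487.
Reference at the TetO position: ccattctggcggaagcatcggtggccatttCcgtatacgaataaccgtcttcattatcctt

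The distal bins lay on 12 arms of 10 chromosomes, and most came from a few arms. The right arm of chromosome IV (IVR), the longest, gave 65 bins between 850001 and 1500000, of which 59 were used. XVR gave 33 bins between 730001 and 1060000, of which 32 were used. XIIIR gave 22 bins between 670001 and 890000, of which 21 were used. These arms thus held most of the members. XIVL gave 20 bins (30001 to 230000), VIIR gave 16 (900001 to 1060000), and IIR gave 14 (640001 to 780000). XVIL gave 13 bins (30001 to 160000), of which 12 were used, and VIIL gave 7 (30001 to 100000). The remaining arms reached past the limit by little. IVL and VIIIR gave 2 bins each, and XL and XIL 1 bin each.

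The 9 distal bins that were removed had contacts with under 50% of their partners on other chromosomes in at least 1 map, with the lower of the maps between 22.5% and 49.9%. All or part of a full-length Ty element lay in 7 of them, and in 6 of the 187 bins that were used. An element that crosses a bin border counts in each bin it touches. Across the nuclear genome, 136 bins were removed, of which 33 held all or part of such an element. The values below therefore describe mostly distal sequence without a full-length Ty element.

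Distal bins were like the rest in coding genes, DpnII sites and GC content, and held fewer tRNA genes. The 187 bins held 955 protein-coding genes, or 5.11 per bin against 5.06 over all bins used. They held 25 tRNA genes, or 0.134 per bin, against 0.207 in mid-arm bins and 0.218 over all bins used. Distal bins had 30.9 ± 6.12 DpnII sites (SD over bins) and a mean GC content of 38.3%. Mid-arm bins, taken on the same 12 arms at 150 to 300 kb from the centromere, had 29.4 ± 5.25 sites and 38.0% GC.

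Distal parts contacted each other more often than the average pair between chromosomes. The mean O/E of the 14254 distal pairs was 1.359 in replicate 1 and 1.362 in replicate 2, which gave 1.36 ± 0.00158 (SD, n = 2; Poisson interval 1.35 to 1.37). These pairs held 32541 and 30355 contacts, or 2.28 and 2.13 contacts per pair. No contact was seen in 12.1% and 14.3% of the pairs. The median pair had an O/E of 1.23 and 1.22, so the mean was not set by a few high pairs alone.

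Mid-arm parts of the same arms were lower. Their 14250 pairs had an O/E of 1.188 and 1.203 (1.20 ± 0.0109). The distal level over the mid-arm level was 1.14 and 1.13, with a mean of 1.14 ± 0.00909 (SD, n = 2). The gap between these classes was larger than the spread between maps in both classes, but with a pair of maps from 1 strain no test was made. In contrast, distal bins and mid-arm bins met at close to the average rate, with an O/E of 1.02 ± 0.00138 over 29469 pairs.

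The count of single pairs above an O/E of 1 gave the same order. An O/E above 1 in both maps was found in 5183 of 14254 distal pairs (36.4%), against 21.5% of all pairs used and 27.4% of mid-arm pairs. An O/E above 2 in both maps was found in 828 distal pairs (5.81%), against 4.01% of all pairs and 3.60% of mid-arm pairs. Mid-arm pairs thus fell below all pairs there. Above 4, distal pairs fell below all pairs as well: 12 distal pairs (0.0842%) passed, against 0.286% of all pairs and 0.0421% of mid-arm pairs. Of these 12, 8 held 1 bin of chromosome XV that is described further on.

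Distal parts rarely met the centromere cluster. Their O/E with bins within 30 kb of a centromere was 0.226 and 0.213 (0.220 ± 0.00913), and 67.8% and 70.7% of these pairs had no contact. Pericentromeric bins among themselves had an O/E of 5.41, on only 1118 pairs. With the 30 kb at chromosome ends, distal bins had an O/E of 0.958 ± 0.00593 over 9517 pairs, but this mean joined unlike classes. With the ends of the same long arms the O/E was 1.43 ± 0.0168, and with the ends of arms shorter than 300 kb it was 0.625 ± 0.00903. Ends among themselves had an O/E of 2.22. The part of chromosome XII beyond the ribosomal DNA and more than 400 kb from the centromere, which is no member, met the distal bins at an O/E of 1.40 ± 0.0121.

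**Figure D1:**
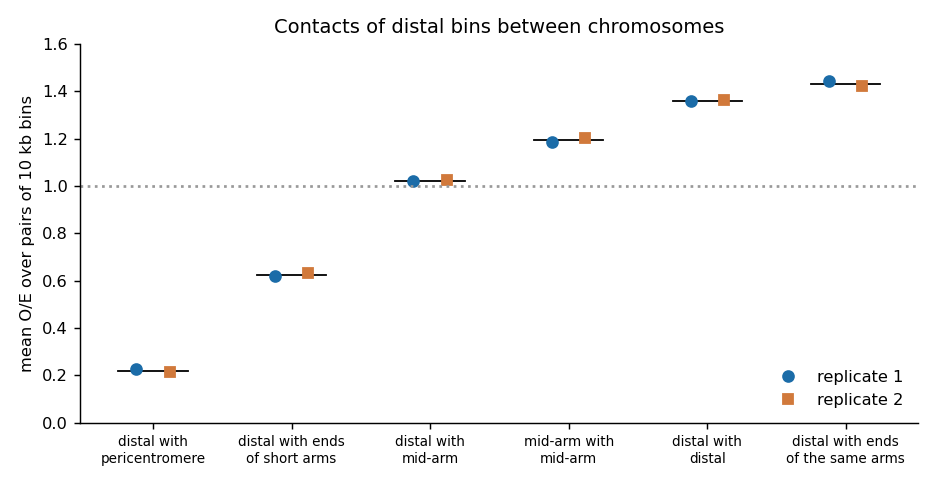
Mean O/E (vertical axis, no unit, starting at 0) of 6 classes of pairs of 10 kb bins on different chromosomes. Circles are replicate 1, squares replicate 2, horizontal bars their mean and the dotted line an O/E of 1. The distal class lies at 1.36, above mid-arm pairs at 1.20, and distal bins with pericentromeres lie lowest, at 0.220.

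The level of a distal bin with a partner rose with the partner's distance from its own centromere over the first 500 kb. The O/E was 0.376 for partners within 100 kb, 0.776 at 100 to 200 kb and 1.07 at 200 to 300 kb. It reached 1.23 at 300 to 400 kb, 1.32 at 400 to 500 kb and 1.37 at 500 to 600 kb. Past 500 kb the profile was flatter. The next bands, to 1000 kb, lay between 1.36 and 1.44, and the last band, from 1000 to 1100 kb on IVR alone, lay at 1.60 ± 0.0757. The spread between maps was at most 0.0267 in every band but this last one.

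**Figure D2:**
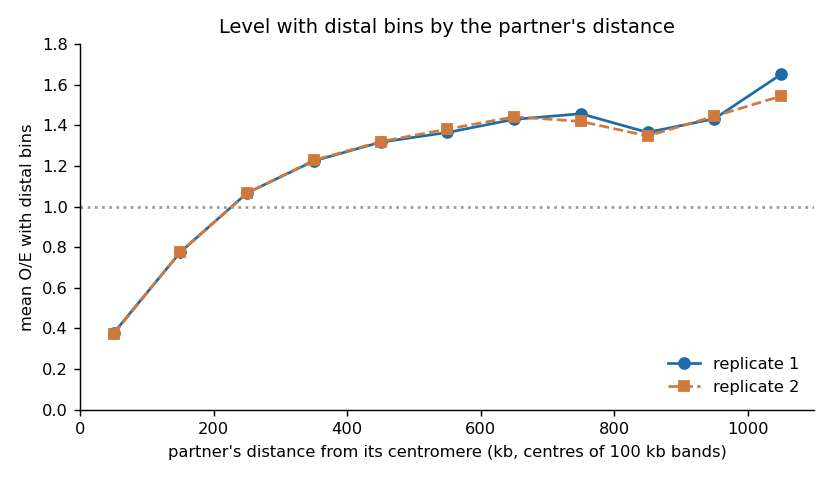
Mean O/E with distal bins (vertical axis, no unit) against the distance of the partner bin from its own centromere in 100 kb bands (horizontal axis, kb). Circles are replicate 1 and squares replicate 2, and the dotted line is an O/E of 1. Both lines climb from 0.376 near centromeres to 1.37 at 500 to 600 kb and then flatten up to the last band, at 1.60.

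The part of this profile beyond 400 kb was also drawn with other band limits, on the same pairs, so it is no separate support. The 43 bins nearest to the 400 kb limit (400 to 450 kb) had an O/E of 1.29 ± 0.00232 with distal bins of other chromosomes. The 21 bins at 600 to 700 kb had 1.44 ± 0.00877. The 15 bins beyond 900 kb, all on IVR, had 1.49 ± 0.0195. The farthest bins over the nearest gave 1.16 ± 0.0172, although the 10 bins at 800 to 900 kb, at 1.36 ± 0.0126, broke the order.

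IVR alone gave this profile with a steep last step, and its bands past 800 kb hold the same pairs as the bands above. Its O/E was 1.28 at 400 to 500 kb, 1.32 at 500 to 600 kb and 1.30 at 600 to 700 kb. It was 1.38 at 700 to 800 kb, 1.36 at 800 to 900 kb and 1.44 at 900 to 1000 kb. The 5 bins at 1000 to 1100 kb had 1.65 in replicate 1 and 1.54 in replicate 2, which was above every other band in both maps. These 5 bins also lie within 100 kb of the chromosome end, so distance from the centromere and nearness to the end cannot be told apart there.

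Among mid-arm pairs, bins at like distances from their centromeres met more often. Pairs whose distances differed by at most 50 kb had an O/E of 1.23 ± 0.00700, against 1.10 ± 0.00128 where they differed by over 100 kb. Distal pairs gave the opposite order. At most 50 kb apart, 3448 pairs had an O/E of 1.30 ± 0.0159, and over 200 kb apart, 4795 pairs had 1.40 ± 0.0124, a ratio of 0.928 ± 0.0195. This ratio was below 1 in both maps (0.915 and 0.942). Over 100 kb apart, the limit used for mid-arm pairs, 8115 distal pairs had 1.38 ± 0.00344. Pairs that differ by over 200 kb need a member more than 600 kb from its centromere, where levels were higher. When both bins lay between 400 and 550 kb from the centromere, pairs at most 50 kb apart had 1.28 ± 0.0188 and pairs over 100 kb apart had 1.26 ± 0.0593, which differed by less than the spread between maps. Without IVR, the values were 1.30 ± 0.0149 at most 50 kb apart and 1.42 ± 0.0411 over 200 kb apart, on 608 pairs.

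Distance to the chromosome end gave the order that distance to the centromere did not. Distal pairs with like distances to their ends, at most 50 kb apart, had an O/E of 1.45 ± 0.0152, against 1.30 ± 0.000750 where these differed by over 200 kb (ratio 1.11 ± 0.0110). Without IVR, the corresponding levels were 1.44 ± 0.0260 and 1.22 ± 0.0274. Some of the highest single pairs described further on lie at like distances to their ends, among them chrXIII:800001-810000 with chrXIV:90001-100000. Without pairs that share an identical word of 50 bases the ratio was 1.10. A ratio without the XV bin with YORWTy2-2 is not given here. Pairs with both bins within 100 kb of an end had 1.48 ± 0.0210 on 1603 pairs. Pairs with both bins farther than 100 kb had 1.36 ± 0.00854 on 6008 pairs, a ratio of 1.09 ± 0.0223. The mixed pairs, 1 bin near and 1 bin far, had the lowest level, at 1.33 ± 0.00603. However, both orders turned when the recovered contacts were balanced on contacts between chromosomes only: like over unlike distance to the end became 0.979, and near over far became 0.941.

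Distal bins had a smaller share of their signal on other chromosomes than the rest. In the deposited maps every bin has the same total, contacts within its own chromosome included. Contacts with other chromosomes made up 28.4% and 28.2% of the signal of distal bins (28.3 ± 0.125), against 31.2% and 31.0% for mid-arm bins and 32.2% and 32.0% for all bins used. IVR, the longest arm, had the lowest share, 25.8%, and the single bin of XL the highest, 32.7%. With bins balanced on contacts between chromosomes only, the distal level was 1.59 in place of 1.36, and the distal level over the mid-arm level 1.33 in place of 1.14.

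Each of the 12 arms exceeded an O/E of 1 with the other distal parts in both maps. XVR had the highest level, 1.42 ± 0.0158 (1.39 without its highest bin), followed by VIIR at 1.40 ± 0.00192 and IVR at 1.37 ± 0.0129. XIVL had 1.36 ± 0.00836 (1.34 without that bin of XVR), XIIIR had 1.35 ± 0.0136, and the single bin of XIL had 1.36 ± 0.0445. XVR, VIIR and IVR kept this order in both maps, but XVR without its highest bin lay under VIIR, and the gap from IVR to XIVL was within the spread between maps. XIIIR lay under IVR in both maps. XVIL had 1.31 ± 0.0295, IIR had 1.30 ± 0.00732, XL had 1.29 ± 0.100, and VIIL had 1.28 ± 0.000746. IVL, at 1.21 ± 0.0443, and VIIIR, at 1.14 ± 0.0440, were lowest, on 2 bins each. Balanced on contacts between chromosomes only, IVR led at 1.71 and XVR followed at 1.66, while VIIIR stayed lowest at 1.27.

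Most arms were also higher than their own mid-arm part. The distal level over the mid-arm level of the same arm was highest for XVR (1.17), VIIR and XIIIR (1.15 each) and IVR (1.14). It was above 1 in both maps for every arm but VIIIR, where it was 0.948 and 1.01. XIIIR, with 1.21 and 1.09, and the single bin of XL, with 1.07 and 1.19, varied most between maps.

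Pairs of arms were compared where at least 20 bin pairs joined them, which left 48 of 64. Their O/E ran from 0.993 to 1.53, and 44 of them were above 1 in both maps. The levels of all 64 pairs of arms agreed little between maps (Pearson r 0.0509 across arm pairs that share bins and libraries, a description). For the 21 with at least 200 bin pairs, which ran from 1.22 to 1.51, r was 0.635.

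Among pairs of arms on 1 side of the distal mean in both maps, the highest mostly held XVR. VIIR with XVR had 1.48 and 1.53 (1.51 ± 0.0322, 512 bin pairs), and IVR with XVR had 1.49 and 1.51 (1.50 ± 0.0109, 1888 bin pairs). XIL with XVR had 1.41 and 1.65 (1.53 ± 0.170) on only 32 bin pairs and 161 contacts. XIVL with XVR followed at 1.46 ± 0.00845, but without 1 bin of XVR its level was 1.32 ± 0.0267, below the distal mean. XIVL with XL had 1.44 ± 0.0590 on 20 bin pairs. VIIR and IVR with XVR had 1.50 and 1.48 without that bin. Of the 21 pairs of arms with at least 200 bin pairs, 6 stood above the distal mean in both maps. They were VIIR, IVR and XIVL with XVR, IIR with VIIR (1.43), XIIIR with XIVL (1.41) and VIIR with XIIIR (1.41). XIIIR with XIVL includes the single bin pair that shares the Ty4 repeat, at an O/E of 27.8. Its level without that bin pair is not given here, so its place above the mean may rest on it.

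The lowest of these pairs held the short distal parts of VIIIR or IVL. VIIIR with XVR had 1.04 and 0.950 (0.993 ± 0.0604), IVR with VIIIR had 1.01 and 1.17 (1.09 ± 0.112), and IVL with XVR had 1.08 and 1.10 (1.09 ± 0.010). Their Poisson intervals were wide, 0.848 to 1.16 for the first on 167 contacts. The bins of VIIIR and IVL lie near both the 400 kb limit and the chromosome end. Not every pair with VIIIR was low: IIR with VIIIR had 1.33 and 1.72 (1.53 ± 0.271) on 28 bin pairs. It was not named among the highest because replicate 1 lay below the distal mean. When balanced on contacts between chromosomes only, XIL with XVR (1.57), XIVL with XVR (1.57) and XIVL with XL (1.45) fell under the distal mean of 1.59, whereas IVR with XVR rose to 1.93.

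**Figure D3:**
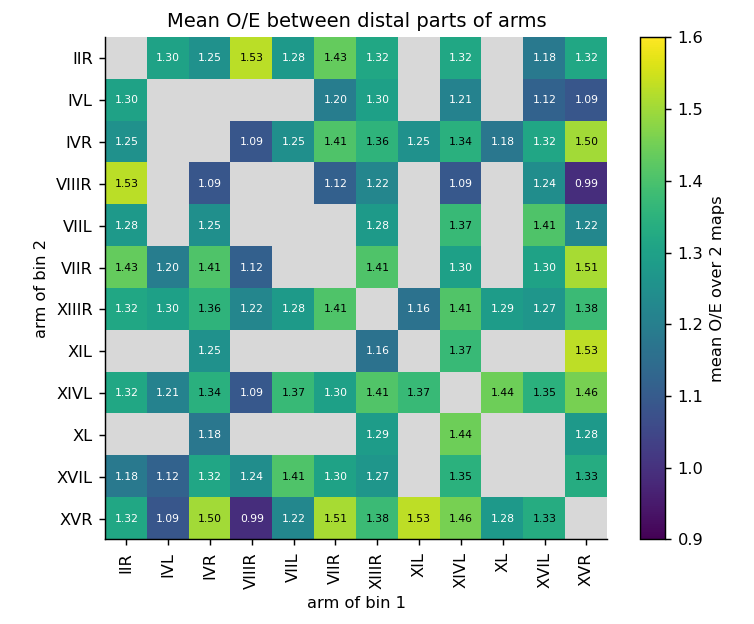
Mean O/E over both maps between the distal parts of 12 arms (both axes, arms by chromosome and L or R), with colour and printed value giving the O/E. Grey fields are arms of the same chromosome or fewer than 20 bin pairs. VIIR and IVR with XVR stand at 1.51 and 1.50, and VIIIR with XVR is lowest at 0.99.

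Single distal bins ranged more widely than arms and were similar in both maps. The 187 bins had O/E values from 1.05 to 2.40 with a median of 1.35, and 186 of them exceeded 1 in both maps. Across bins, which share libraries and partners, Pearson r between the maps was 0.751, or 0.689 without the highest bin. Of the 187, 58 were above the distal mean in both maps, 80 were below it in both, and 49 changed side.

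Levels of bins rose with distance from the centromere. Over 186 bins, without the highest, the O/E had r 0.379 (rho 0.392) with that distance. With the share of the bin's signal that fell on other chromosomes it had r 0.576 (rho 0.542). That share includes the signal with distal bins from which the O/E is formed, so a positive r is partly built in. With distance to the end the O/E had r -0.194 (rho -0.175), and with the number of DpnII sites r -0.195 (rho -0.231). Balanced on contacts between chromosomes only, the relation with distance was steeper, with r 0.709 (rho 0.742), and all 187 bins were above 1 in both maps. Of the 58 bins above the mean in both maps, 35 remained so, and of the 80 below it, 43 did. The order of single bins thus depended on the balance, and their share of signal with other chromosomes is given beside each.

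The highest bin was chrXV:970001-980000, with 2.53 in replicate 1 and 2.27 in replicate 2 (mean 2.40). It holds EMT2 and TYE7, a transcription factor of glycolytic genes, and the Ty2 element YORWTy2-2 at chrXV:970286-976244. Of its signal, 40.9% fell on other chromosomes, the highest share of any distal bin. It also led with the other balance, at 1.93.

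The next bins lay lower and close together. The bin chrXIV:90001-100000 had 1.67 and 1.75 (mean 1.71, share 33.6%) and holds CAF40, a subunit of the CCR4-NOT complex, SEC21, a COPI coat protein, and the start of YNLCTy1-1. Without its pairs with the bins of XIII and XV in the stretches printed above, its level was 1.46. The bin chrXV:980001-990000 had 1.59 and 1.83 (mean 1.71, share 36.5%) and holds REV1, a translesion DNA polymerase whose promoter is also part of the strain's constructs, PYK2, a pyruvate kinase, and PUT4, a proline transporter. It fell to 1.55, under the distal mean of 1.59, with the other balance.

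The other high bins lay near the end of IVR. The bin chrIV:1440001-1450000 had 1.65 and 1.74 (mean 1.70, share 30.3%) and holds VPS3, a vacuolar sorting protein, PUF6 and the inositol transporter gene ITR1. The bin chrIV:1490001-1500000 had 1.80 and 1.55 (mean 1.67, share 31.1%) and holds SNA2, RBA50 and the small nucleolar RNA SNR84. Both kept levels above the mean with the other balance, at 1.81 and 1.76.

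The lowest bins lay near the 400 kb limit or had a low share of signal with other chromosomes. The bin chrVIII:520001-530000 with FLO5, a cell wall flocculin of a family with near-identical copies, had 1.05 and 1.04 (share 31.4%). The bin chrXVI:120001-130000 with ALG5, a glycosylation enzyme, NEW1 and CHP1 had 1.20 and 0.990 (mean 1.10, share 26.3%). FLO5 remained the lowest bin with the other balance, at 1.23.

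The remaining low bins were from longer arms. The bin chrIV:1220001-1230000 with VPS74, FRQ1 and PHO92 had 1.06 and 1.16 (mean 1.11) and the bin's share was 22.7%. The bin chrXIII:710001-720000 with ERG8, an enzyme of sterol synthesis, FMP42 and FSH2 had 1.18 and 1.06 (mean 1.12), with a share of 24.9%. The bin chrXV:850001-860000 with RDL2, RRP36 and MPD1 had 1.07 and 1.17 (mean 1.12), with a share of 24.3%. With the other balance they had 1.58, 1.51 and 1.60, near the distal mean of 1.59.

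**Figure D4:**
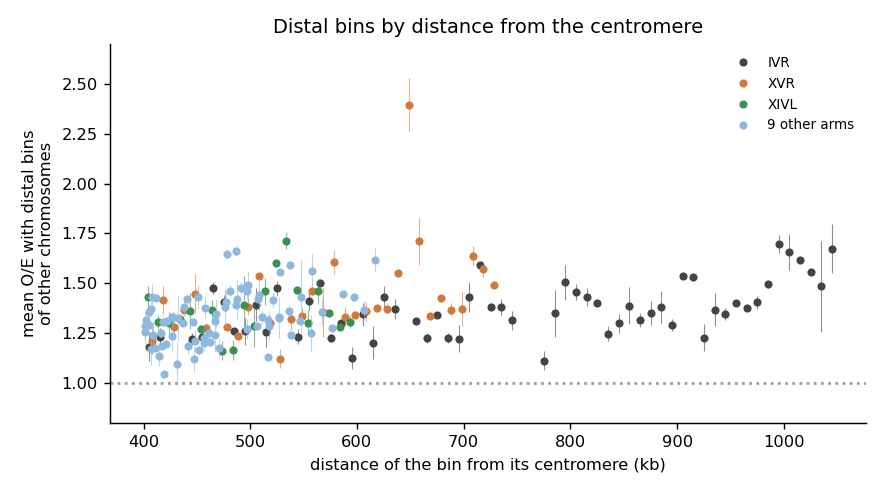
Mean O/E of each of 187 distal bins with distal bins of other chromosomes (vertical axis, no unit) against its distance from the centromere (horizontal axis, kb). Points are means of both maps, thin lines join replicates 1 and 2, and colours mark IVR, XVR, XIVL and 9 other arms. 1 bin of XVR stands apart at 2.40, and the bins of IVR near 1000 kb reach 1.70.

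The TetO array lay 508 kb from the centromere, in the bin chrXV:830001-840000 with VPH1, a subunit of the vacuolar proton pump, FSF1 and SNR8. Its O/E was 1.55 and 1.52 (1.54 ± 0.0202, Poisson interval 1.42 to 1.65), on 366 and 337 contacts. It ranked 22 of 187 bins, above both neighbours at 1.30 and 1.38. With bins balanced on contacts between chromosomes only it ranked 63. The LacO array, 168 kb from the centromere, was not in the distal set, and no map without the arrays was analysed here.

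Single pairs of distal bins held few contacts, and their agreement between maps was low (r 0.121 across 14254 pairs, which share bins). Only 2341 pairs had at least 3 contacts in each map, and 311 had none in either. The pairs named next were the 10 highest with at least 3 contacts in each map. A single bin, chrXV:970001-980000 with YORWTy2-2, was part of 7 of them.

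The highest pair was chrXIII:800001-810000 with chrXIV:90001-100000. Its O/E was 27.8 in both maps, on 35 and 32 contacts (Poisson interval 21.6 to 35.3). The first bin holds PPA2, a mitochondrial pyrophosphatase, the splicing factor gene PRP24 and TMA23. These bins share 78 identical words of 50 bases, all within the Ty4 repeat printed above. The bins around it were far lower: along XIV, those on either side had 3.14 and 3.88, and those 20 kb away 1.31 and 1.85. Whether reads of the repeat were misplaced was not tested, so the value of this pair may not be contacts between separate chromosomes.

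The bin of XV with TYE7 gave a broader pattern along XIV. Its O/E was 17.2 with chrXIV:90001-100000, on 10 and 11 contacts, and 16.3 with chrXIV:110001-120000, on 8 and 10 contacts. With the bin between them, which holds part of YNLCTy1-1 and none of the shared words, it was 27.5 and 5.92, on 15 and 3 contacts. Flanking bins were lower in steps, with 7.42 at chrXIV:80001-90000 and 7.38 at chrXIV:70001-80000.

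Over the 6 bins of chrXIV:70001-130000, this bin had an O/E of 12.7 and 11.0 on 51 and 41 contacts (Poisson interval 9.57 to 14.6). Its neighbours on XV did not share the pattern. Over the same stretch, chrXV:960001-970000 had 0.913 and 2.06 and chrXV:980001-990000 had 1.58 and 1.34. Only the pair with chrXIV:90001-100000 shares words with the Ty2 bin (19 words). In contrast, chrXV:980001-990000 shares 85 and 84 words with the XIV bins at 90001 and 100001, and its O/E there was 1.37 and 2.83. With distal bins outside XIVL, the Ty2 bin still had 1.91 ± 0.131. O/E takes the positions of the reference genome, and whether the strain carries a rearrangement or a moved Ty copy here was not tested, so for this bin and the 7 pairs that hold it the values may not be contacts between separate chromosomes.

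**Figure D5:**
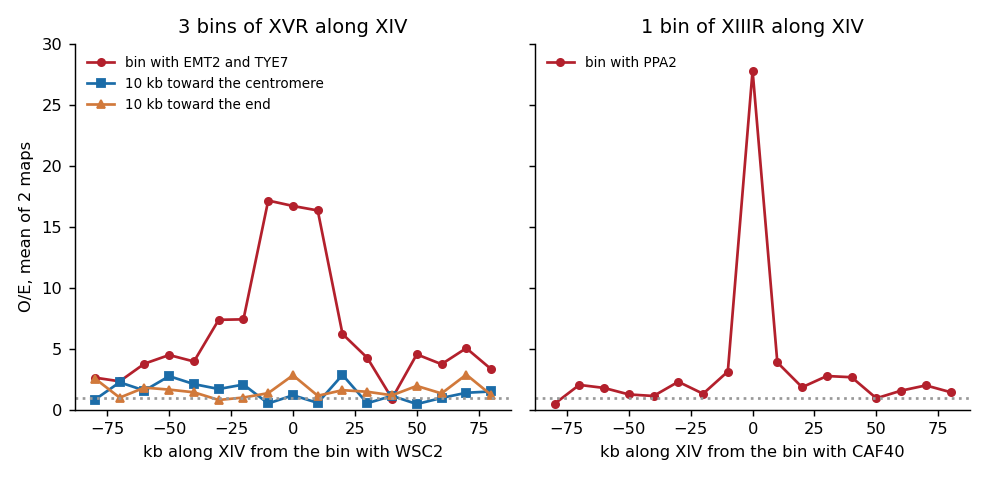
O/E (vertical axis, no unit, mean of both maps) of single bins along the left arm of chromosome XIV (horizontal axes, kb from a named bin). The left panel shows the XVR bin with EMT2 and TYE7 and its neighbours, and the right panel the XIIIR bin with PPA2. The XVR bin stays above 5 over 6 neighbouring bins while its neighbours stay below 3, and the XIIIR bin peaks at 27.8 in 1 bin.

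The remaining high pairs rested on few contacts. The Ty2 bin had 5.86 with chrIV:1450001-1460000, which holds RPL37B and SAM2, on 7 contacts in all, and 5.05 with chrXIV:170001-180000, on 9 contacts. Only 2 of the 10 pairs held neither shared words nor a Ty element. The bin chrII:640001-650000, with AME1 of the kinetochore, and chrXIV:120001-130000, with TOF1 of the replication fork, had 5.0 on 11 contacts (Poisson interval 2.50 to 8.94). The bin chrIV:1150001-1160000, with the hexose transporter gene HXT7, and chrXIII:870001-880000, with the alcohol dehydrogenase gene ADH2, had 5.0 on 10 contacts (2.40 to 9.19). Both were chosen as the highest of many pairs.

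Shared sequence was rare among distal pairs. Words of 50 bases were shared by 52 of the 14254 pairs (0.365%), against 0.513% of all pairs used. The 52 pairs had an O/E of 2.27 ± 0.126 and the pairs without shared words had 1.36 ± 0.00205. Without the 2 pairs of the printed Ty stretches, an alternative chosen after seeing the data, the other 50 had 1.46 ± 0.174 (Poisson interval 1.25 to 1.70), which holds the level of pairs without shared words.

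Gene groups within the distal set were then described by counts, beside 36.4% of all distal pairs with an O/E above 1 in both maps. Of 138 ribosomal protein genes, 17 lay in 15 distal bins. Their 87 pairs had an O/E of 1.40 and 1.58 (1.49 ± 0.127), and 33 (37.9%) were above 1 in both maps, close to the share of all distal pairs. Of 275 nuclear tRNA genes, 30 lay in 28 distal bins, and 23 of these bins were used. Their 195 pairs had 1.82 ± 0.0392, and 84 (43.1%) were above 1 in both maps, but without the Ty2 bin of XV and the pair that shares the Ty4 repeat, the 174 remaining pairs had 1.44 (Poisson interval 1.34 to 1.55). Of 50 full-length Ty elements, 9 lay in distal bins. The 6 bins used that hold all or part of an element formed 13 pairs, at 3.88 ± 0.603, with 6 (46.2%) above 1 in both maps. The 8 pairs left without the Ty2 bin had 0.854 and 2.35, on 20 contacts.

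Genes of methionine and sulfur metabolism were counted because the cells were deprived of methionine. Of 36 listed genes, 5 lay in distal bins. They were MET2, the homoserine acetyltransferase gene, on XIV, MET7, the folylpolyglutamate synthetase gene, on XV, MET8, a gene of siroheme synthesis, on II, and MET32, a transcriptional regulator of the pathway, and SAM2, an S-adenosylmethionine synthetase, on IV. Their bins had O/E values with the distal set of 1.46, 1.28, 1.25, 1.25 and 1.66.

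The 9 pairs among these genes on different chromosomes held 37 contacts in all. Their mean O/E was 1.70 and 1.37 (1.54 ± 0.233, Poisson interval 1.08 to 2.12), an interval that holds the distal mean of 1.36. An O/E above 1 in both maps was found in 6 of the 9 (66.7%). MET2 with SAM2 was highest, at 2.59 and 2.80 on 2 contacts in each map. MET2 with MET32 had no contact in either map. A difference of these genes from other distal pairs was not detectable at this depth.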

How the data were processed

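Cells were fixed with formaldehyde and chromatin was cut with DpnII. Per the labels, the authors processed reads with HiC-Pro on sacCer3. Read filters and the count of balancing rounds were not given in the sources used here. The deposited signal is the contact frequency of each pair of 10 kb bins, balanced (ICE) so that every bin has the same total, within each map and with no scaling between maps. Every value times the recovered factors of its 2 bins was whole within 0.01, which gave contacts. Bins were used where at least a share of 0.5 of partners on other chromosomes held a value in both maps. Centromeres and genes came from the R64 annotation, which has the chromosome lengths of the bin table. On simulated maps, only the recovery of contacts and the distal and mid-arm levels, each over distal with mid-arm pairs, were checked. The balancing and the other results were not checked in this way.

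Named were every arm, the 5 highest and 3 lowest arm pairs (at least 20 bin pairs), the 5 highest and 5 lowest bins, each on 1 side of the distal mean in both maps, the 10 highest bin pairs (at least 3 contacts in each map) and the TetO bin. Bins are named by up to 3 genes that start in them. Members and gene lists were chosen with earlier results of these data known. Python 3.11.15, numpy 2.4.6 and pandas 2.3.3 were used.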

Additional observations from a re-analysis of the deposited data

How the results depend on the processing

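Only relations between classes within 1 strain were measured, at about 2 contacts per distal pair, so single pairs are known only to within a few contacts. No paired analysis was possible because maps of only 1 group were analysed. Removing either map leaves the value of the other, so these ranges repeat the replicate values and are no separate support. The distal level ran from 1.359 to 1.362 and distal over mid-arm from 1.13 to 1.14. Matched over unmatched distance to the centromere ran from 0.915 to 0.942, and near-end over far-from-end from 1.07 to 1.10. The share of signal with other chromosomes ran from 28.2% to 28.4%.

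Balanced on contacts between chromosomes only, the distal level was 1.59, distal over mid-arm 1.33 and matched over unmatched distance 0.873, while near-end over far-from-end turned to 0.941 and like over unlike distance to the end to 0.979. The cause was not tested. With a limit of 350 kb the distal level was 1.31, distal over mid-arm 1.10, near-end over far-from-end 1.04 and the share 28.7%, and with 450 kb the level was 1.42, distal over mid-arm 1.19 and the share 28.1%. A margin of 50 kb gave a level of 1.37 and a share of 28.0%, no filter on bins a level of 1.34 and the median over windows of 5 by 5 bins a level of 1.32. Without the XV bin with YORWTy2-2, an alternative chosen after seeing the data, the level was 1.35 and distal over mid-arm 1.13. Of 47 named values, 33 moved by more than the spread between maps with the balance between chromosomes, 14 with no filter and 7 without pairs that share words. Of these 47, 1 turned, which was like over unlike distance to the end. Near-end over far-from-end, which also turned, is not among the 47. The share was not recomputed for the other balance, for shared words or for windows.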
